A study of Homo sapiens with 8 samples.

Results

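The Mediator complex carries signals from DNA-bound activators to RNA polymerase II, and its subunits are described here in U2OS cells, an established human osteosarcoma line. The members are the genes whose symbol is MED followed by a number, with or without a final L, together with CDK8, CDK19 and CCNC, which gave 33 of the 22504 genes in the expression table. Poly(A) RNA was sequenced in 4 groups with 2 libraries each, 8 libraries in all. The groups were cells overexpressing the actin mutant G13R after serum stimulation, G13R cells in normal growth, cells expressing GFP after serum stimulation, and GFP cells in normal growth. The labels leave unsaid which actin gene is mutated, the length of the serum treatment, whether serum was withdrawn beforehand and whether any group is a single clone. They do not tie the libraries to separate cultures either. The p-values below weigh group differences against the spread of libraries within groups. That spread may be only technical, so the p-values may not extend to new cultures.

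Mediator is built from a head and a middle module, which contact RNA polymerase II, a tail module, which many activators bind, and MED14, the scaffold that joins them. A kinase module of CDK8 or CDK19, cyclin C, MED12 or MED12L, and MED13 or MED13L binds the complex reversibly and keeps the polymerase from engaging it. Mediator relays growth factor signals, among others, to immediate-early genes. Here 7 members were placed in the head, 9 in the middle, 9 in the tail, 1 as the scaffold and 7 in the kinase module. MED27, MED28, MED29 and MED30 were counted in the tail, although other schemes place them in the head.

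Values are FPKM, fragments scaled to transcript length and to the mapped fragments of the library, as the authors deposited them, and they allow levels of different genes to be compared because they are scaled to length. They hold no read counts, so the depth behind a value is unknown. A library had 12065 to 12568 genes at 1 FPKM or more and an FPKM sum of 496166 to 559496. ACTB, the cytoplasmic beta-actin gene, was read as a check of the labels. It had 7949 to 11245 FPKM in G13R libraries, against 2543 to 2779 FPKM in GFP libraries, and these values cannot tell mutant from endogenous transcripts. Of the lineage markers of osteoblasts, SPARC stood at 384 to 765 FPKM, COL1A1 at 29.5 to 45.6 and RUNX2 at 3.04 to 9.91, while SP7 and IBSP, which mark osteoblasts more closely, reached at most 0.158 FPKM. The 9 markers of this list summed to 598 and 664 FPKM in G13R cells after serum, against 475 and 519.8 FPKM in G13R cells in normal growth, and to 780.4 and 932 FPKM in GFP cells after serum, against 613 and 696 FPKM in GFP cells in normal growth. SPARC made up most of each sum. After serum TNFRSF11B rose by 3.08 on the log2 scale in G13R cells and by 3.10 in GFP cells. In G13R cells ALPL rose by 0.70. Of the 7 markers tested, 2 in G13R cells and 3 in GFP cells had negative log2 fold changes after serum. None of these was called. In G13R cells COL1A1 had 30.4 and 29.5 FPKM after serum, against 34.1 and 37.1 FPKM in normal growth. SPP1 had 32.3 and 35.1 FPKM there after serum, against 41.4 and 41.3 FPKM in normal growth. Among leukocyte markers PTPRC reached at most 0.814 FPKM, CD68 lay at 9.37 to 12.8 FPKM in every library, and ITGAM had 3.35 to 5.38 FPKM in G13R libraries, against 1.33 to 2.03 FPKM in GFP libraries. The 6 leukocyte markers summed to 14.8 to 16.9 FPKM in G13R libraries, against 11.8 to 15.4 FPKM in GFP libraries. Of the endothelial genes PECAM1 was listed at 0, and no endothelial marker exceeded 0.499 FPKM. The 7 epithelial markers summed to 705 to 709.8 FPKM in G13R cells after serum, against 536 to 596 FPKM in G13R cells in normal growth, and to 906.0 to 1063 FPKM in GFP cells after serum, against 693 to 787 FPKM in GFP cells in normal growth. KRT8 and KRT18 made up most of these sums, and KRT19 and ESRP1 reached at most 0.478 FPKM. Of the 5 markers tested, 2 were called higher after serum in G13R cells and 3 in GFP cells. CDH1 went the other way after serum, by -0.84 on the log2 scale in G13R cells and by -1.09 in GFP cells. It was called in neither. After serum 1 marker, KRT18, was called lower in G13R than in GFP cells. The 6 neural markers summed to 28.5 to 34.8 FPKM over all libraries, with SOX10 at most 0.267 FPKM. Of the 4 tested, MAP2 rose after serum by 0.94 in G13R cells and by 0.90 in GFP cells, and SYP (-0.61) and OLIG2 (-0.69) fell in GFP cells. The part of these marker lists in the results below was not tested. GFP serum replicate 2 stood apart from the other libraries. It lay at 44.7 on the first principal component, which held 53.9% of the variance, against 26.0 for GFP serum replicate 1, 11.8 and 14.5 for the G13R serum libraries and -25.3 to -21.6 for those in normal growth. Where the call of a member was lost without GFP serum replicate 2, that value is given below, and a lower count of members called is stated. The called shares of all genes, of the markers and of the other gene lists are not given without it.

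All 33 members were expressed. The median over members was 18.7 FPKM, taking each member's median over the 8 libraries, and the same figure over the 12996 genes tested was 12.2 FPKM. Of the members, 21 exceeded 10 FPKM in every library and 5 stayed under 10 FPKM in every library. The order of levels ran from MED15, a tail subunit that binds the sterol regulators SREBP, at 72.5 to 99.4 FPKM, to MED12L, the minor paralogue of the kinase module subunit MED12, at 1.52 to 2.98 FPKM. MED15 exceeded MED10, the next gene in that order, in 8 of 8 libraries. MED10, a middle subunit, had 43.4 to 78.2 FPKM and lay above MED6, the third, in 8 of 8 libraries. Most neighbours in the order could not be separated. The ranges over the 8 libraries overlapped in all but 2 of the 32 neighbouring pairs, and the exceptions were MED24 above MED1 and MED26 above MED12L.

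Head subunits had medians from 7.36 FPKM for MED11 to 39.5 FPKM for MED6, and middle subunits from 4.82 FPKM for MED26, which helps recruit elongation factors, to 65.1 FPKM for MED10. Tail subunits ran from 11.0 FPKM for MED23, which in mouse cells binds the growth factor-regulated activator ELK1, to 91.8 FPKM for MED15. Kinase module subunits ran from 2.23 FPKM for MED12L to 33.0 FPKM for CCNC, which encodes cyclin C. The scaffold gene MED14 had a median of 16.2 FPKM. These medians spread far more between members than any member did between libraries. The highest library exceeded the lowest by 1.12 times for MED1, the subunit that binds nuclear receptors, and by 2.61 times for CDK19. The median of this ratio was 1.49, and 2 members, CDK19 and MED30, exceeded 2.

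**Figure D1:**
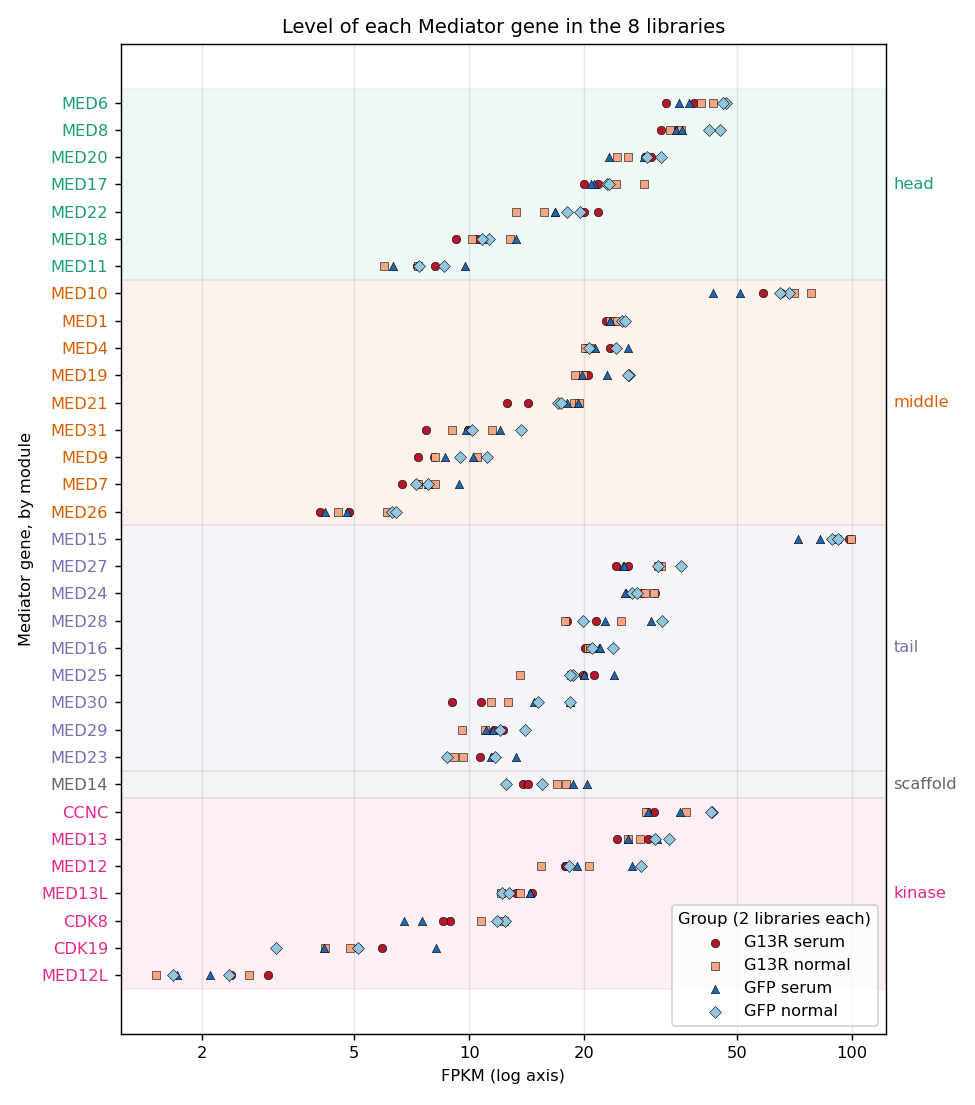
FPKM of each of the 33 Mediator genes (rows, by module, log axis) in the 8 libraries, with a marker shape and colour for each group. The members span 1.52 to 99.4 FPKM, while the libraries of 1 member mostly lie close together.

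The serum response of GFP cells, in which the mutant is not expressed, is described first. It compares cells after serum stimulation with cells in normal growth, and whether serum was withdrawn beforehand is unsaid. Throughout, serum response, fell and rose refer to this comparison within a kind of cell. The clearest change was in CDK8, the kinase of the kinase module (chromosome 13, 26828276 to 26979375 on hg19, as are all gene spans here). CDK8 had 7.52 and 6.75 FPKM in GFP cells after serum, against 12.4 and 11.8 FPKM in GFP cells in normal growth. Both serum libraries lay below both normal growth libraries, and CDK8 fell by a log2 fold change of -0.69 ± 0.14 (limma adjusted p = 0.0046, SE). Here and below, fold changes are on the scale of log2(FPKM + 1), errors beside them are SE, and adjusted p-values are limma's with Benjamini-Hochberg adjustment over the 12996 genes. This call was kept under all 16 alternatives, including each left-out library, with adjusted p from 0.00324 to 0.0374 and log2 fold changes from -0.78 to -0.62. FPKM of bulk RNA is relative to all fragments of a library, so less RNA per cell and fewer cells with the RNA cannot be told apart.

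CCNC, whose cyclin C activates CDK8 (chromosome 6, 99990256 to 100016849), had 29.4 and 35.6 FPKM in GFP cells after serum, against 43.1 and 42.8 FPKM in GFP cells in normal growth. The groups did not overlap, and CCNC fell by -0.40 ± 0.13 on the log2 scale (adjusted p = 0.0443). That call stood at the threshold. Leaving out any library of the GFP groups other than serum replicate 2, or either G13R serum library, moved the adjusted p to between 0.0661 and 0.183, and the replicate block moved it to 0.0544. CDK19, the paralogue that can replace CDK8, had 4.17 and 8.18 FPKM in GFP cells after serum, against 5.13 and 3.14 FPKM in GFP cells in normal growth. The groups overlapped and CDK19 was not called (0.45 ± 0.28, adjusted p = 0.239), although without GFP serum replicate 1 it was (0.87, adjusted p = 0.0262). That value rests on GFP serum replicate 2 alone, the library that stood apart. Wherever 1 library of a group is left out, the remaining one is assumed to vary like the other groups.

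In the middle module, MED10 (chromosome 5, 6371994 to 6378707) had 50.9 and 43.4 FPKM in GFP cells after serum, against 68.3 and 64.7 FPKM in GFP cells in normal growth. The serum libraries were the lower ones, and MED10 fell by -0.49 ± 0.11 (adjusted p = 0.00714; 0.0558 without GFP normal replicate 1). MED26 had 4.80 and 4.19 FPKM after serum, against 6.29 and 6.44 FPKM in normal growth. Its groups did not overlap either, but it was not called (-0.42 ± 0.18, adjusted p = 0.0969), although after quantile normalization it was (-0.58, adjusted p = 0.0362).

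In the head module, MED6, which lies near the polymerase contact (chromosome 14, 71047974 to 71067384), had 37.6 and 35.3 FPKM in GFP cells after serum, against 46.8 and 46.2 FPKM in GFP cells in normal growth. MED8 (chromosome 1, 43849588 to 43855479), which in yeast ties the MED18 and MED20 pair to the head, had 34.8 and 36.0 FPKM after serum, against 45.3 and 42.3 FPKM in normal growth. Neither pair of groups overlapped. MED6 fell by -0.34 ± 0.11 (adjusted p = 0.0339) and MED8 by -0.30 ± 0.10 (adjusted p = 0.0403). Both were near the threshold. The MED6 call was lost without GFP normal replicate 1 or 2 or GFP serum replicate 2 (adjusted p = 0.135, 0.108 and 0.124), and the MED8 call without any 1 of the 8 libraries (adjusted p from 0.054 to 0.2).

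In the tail, MED27 (chromosome 9, 134735494 to 134955295) had 25.2 and 25.5 FPKM in GFP cells after serum, against 31.2 and 35.8 FPKM in GFP cells in normal growth. The serum libraries were lower, and MED27 fell by -0.38 ± 0.11 (adjusted p = 0.0202; 0.0557 without GFP serum replicate 2 and 0.141 without GFP normal replicate 2). Of the 50-base windows of the longest coding MED27 transcript, 34.9% also occur in the pseudogene CRSP8P, so reads may be divided between them. MED23 had 13.3 and 11.4 FPKM after serum, against 11.6 and 8.76 FPKM in normal growth, with overlapping groups and no call (0.26 ± 0.16, adjusted p = 0.234). The scaffold gene MED14 (chromosome X, 40507558 to 40595110) was the 1 member called higher. It had 18.7 and 20.3 FPKM in GFP cells after serum, against 12.5 and 15.5 FPKM in GFP cells in normal growth. It rose by 0.46 ± 0.13 (adjusted p = 0.0231). The groups did not overlap, but the call was lost when either GFP normal replicate 1 (adjusted p = 0.172) or GFP serum replicate 2 (adjusted p = 0.101) was left out.

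In all, 6 of 33 members were called lower after serum in GFP cells and 1 higher. That was 21.2% of the members, where 30.7% of all genes tested were called (15.7% lower and 14.9% higher). Over both directions the share of called members was thus not above that of all genes. By direction, 6 of 33 were lower, beside 15.7% of all genes, and 1 of 33 was higher, beside 14.9%. The median log2 fold change over the members was -0.11, with 23 of 33 negative, against a median of 0.01 over all genes tested. Here and below, the share of all genes with negative values was not counted. In the same comparison 26 of 34 general transcription factor genes and 10 of 12 RNA polymerase II subunit genes were negative. By module, 2 of 7 head, 1 of 9 middle, 1 of 9 tail and 2 of 7 kinase subunits fell, and the scaffold rose. The other 26 members were not called. The count of 7 was lower without GFP serum replicate 2 or either GFP normal replicate, and higher without GFP serum replicate 1. The number of all genes called moved the same way in each of these fits.

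**Figure D2:**
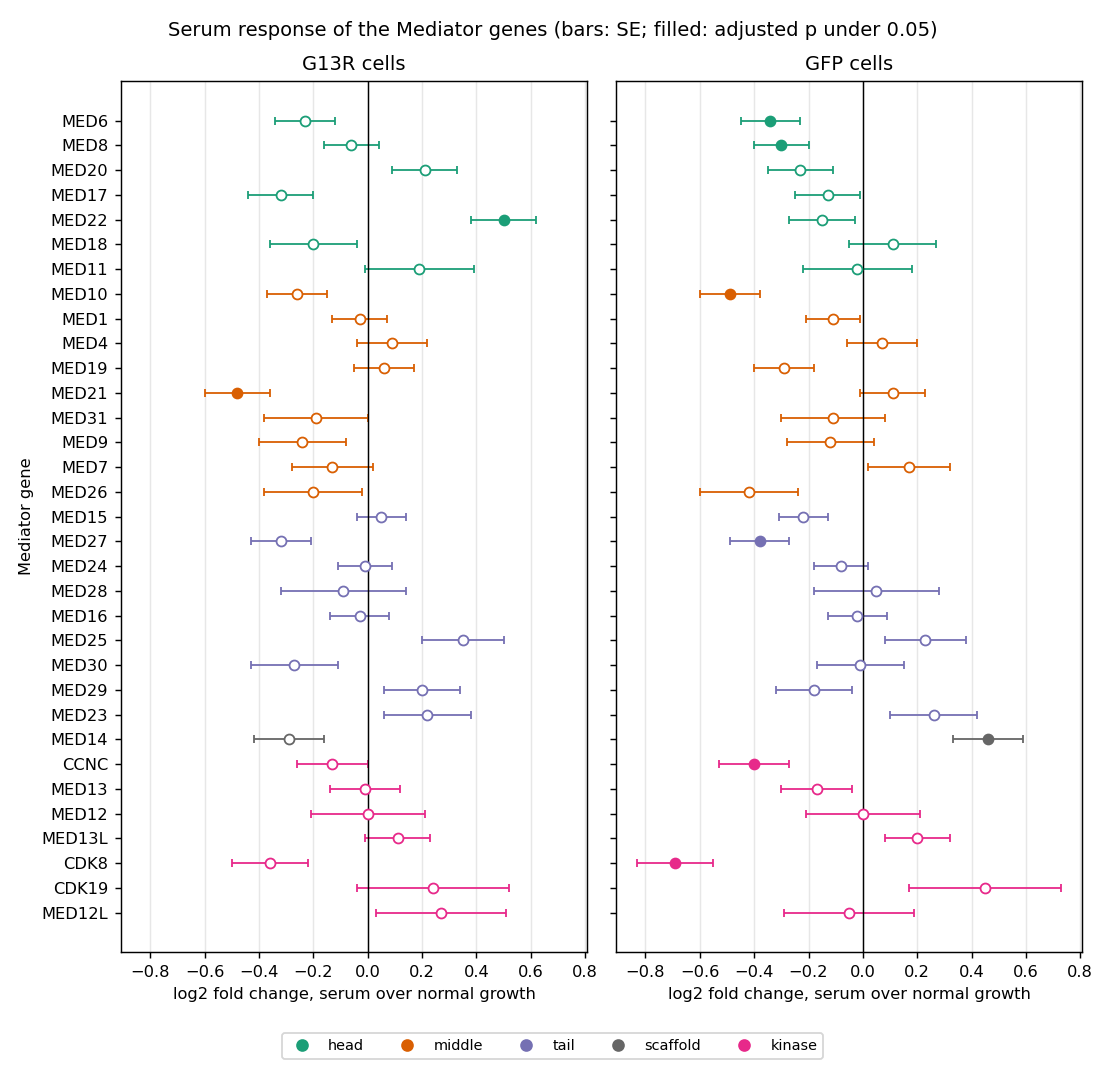
Log2 fold change of each Mediator gene, serum over normal growth, in G13R cells (left) and GFP cells (right), with SE bars and filled points at adjusted p under 0.05. CDK8 stands farthest to the left in GFP cells at -0.69, and MED14 and MED21 lie on opposite sides of 0 in the 2 kinds of cell.

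Promoters are shown for 4 of the members that fell, CDK8, CCNC, MED10 and MED27, because they are the genes whose lower transcript levels are described above. Each line gives the 250 bases before a RefSeq start on GRCh38.p14, 5′ to 3′ on the gene's strand, and capitals mark matches to the motifs named next. MED6, MED8 and MED14 are named only.
CDK8, chr13:26253879-26254128, plus strand: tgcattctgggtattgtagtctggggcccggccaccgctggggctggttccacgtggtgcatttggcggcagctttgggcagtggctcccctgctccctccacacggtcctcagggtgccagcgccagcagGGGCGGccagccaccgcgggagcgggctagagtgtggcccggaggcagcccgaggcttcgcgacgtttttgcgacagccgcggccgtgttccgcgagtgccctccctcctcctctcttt
CCNC, the downstream of 2 listed starts, chr6:99568661-99568910, minus strand: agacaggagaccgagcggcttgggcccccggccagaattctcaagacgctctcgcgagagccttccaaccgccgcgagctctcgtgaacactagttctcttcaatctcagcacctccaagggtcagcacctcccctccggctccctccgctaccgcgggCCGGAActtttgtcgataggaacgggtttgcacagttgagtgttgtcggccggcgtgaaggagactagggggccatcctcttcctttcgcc
MED10, chr5:6378548-6378797, minus strand: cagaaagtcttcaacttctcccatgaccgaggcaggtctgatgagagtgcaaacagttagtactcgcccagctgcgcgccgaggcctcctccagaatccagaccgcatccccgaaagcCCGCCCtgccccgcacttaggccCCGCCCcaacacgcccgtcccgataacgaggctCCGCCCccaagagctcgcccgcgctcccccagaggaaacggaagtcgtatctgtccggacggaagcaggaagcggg
MED27, chr9:132079868-132080117, minus strand: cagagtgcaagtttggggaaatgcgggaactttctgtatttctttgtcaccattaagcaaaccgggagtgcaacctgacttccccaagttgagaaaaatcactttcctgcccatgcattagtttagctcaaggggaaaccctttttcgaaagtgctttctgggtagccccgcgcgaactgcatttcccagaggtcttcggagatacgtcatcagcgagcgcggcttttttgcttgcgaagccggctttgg
The motifs were searched on both strands and, in the 4 lines above, no 2 matches overlap. CDK8 held 1 match to GGGCGG, the letters bound by SP factors, and MED10 held 3, all on the opposite strand, where they read CCGCCC in its line. The CCNC window shown held 1 match to CCGGAA, an ETS factor motif, while the window of its upstream start held 0 and had 1 match to CCAAT. The window of MED27 held 0 matches to any motif searched. RefSeq windows were matched for 25 of 33 members, 30 windows in all. GGGCGG was in 56.7% of those windows and in 42.6% of the 35116 windows of the whole table. CCGGAA was in 30% and 14.5%, CCAAT (NF-Y) in 36.7% and 32.0%, the NRF1 motif in 13.3% and 5.07%, AAGATGGC (YY1) in 6.67% and 1.36%, and TATAAA in 6.67% and 10.7%. The whole table includes promoters of noncoding genes, a match is not a binding site, and the members share windows where a gene has several starts.

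In G13R cells the serum response passed the test for MED21 and MED22. MED21, which in yeast pairs with MED7 in the middle module (chromosome 12, 27175479 to 27219276), had 12.6 and 14.2 FPKM in G13R cells after serum, against 18.8 and 19.4 FPKM in G13R cells in normal growth. It fell by -0.48 ± 0.12 (adjusted p = 0.0237), and its groups did not overlap. MED22, which in yeast pairs with MED11 in the head (chromosome 9, 136205160 to 136214986), had 21.7 and 20.01 FPKM in G13R cells after serum, against 15.7 and 13.3 FPKM in G13R cells in normal growth. It rose by 0.50 ± 0.12 (adjusted p = 0.0264), again without overlap. Both calls were lost without any 1 of the 4 G13R libraries, with adjusted p from 0.0713 to 0.156 for MED21 and from 0.0537 to 0.159 for MED22.

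These 2 were the members called in G13R cells, 6.06% of the 33, where 12.9% of all genes tested were called (4.62% lower and 8.26% higher). The median log2 fold change over the members was -0.03, with 20 of 33 negative, against 0.04 over all genes tested. CDK8 had 8.93 and 8.56 FPKM in G13R cells after serum, against 10.7 and 12.3 FPKM in G13R cells in normal growth. The serum libraries were again the lower ones, but the difference did not pass (-0.36 ± 0.14, adjusted p = 0.11). MED10 had 65.4 and 58.5 FPKM after serum, against 78.2 and 70.6 FPKM in normal growth (-0.26 ± 0.11, adjusted p = 0.137). MED27 had 26.0 and 24.2 FPKM after serum, against 31.8 and 31.2 FPKM in normal growth (-0.32 ± 0.11, adjusted p = 0.0756). Neither overlapped between its groups, and neither was called. MED6 (-0.23 ± 0.11, adjusted p = 0.177), MED8 (-0.06 ± 0.10, adjusted p = 0.724) and CCNC (-0.13 ± 0.13, adjusted p = 0.546) were not called either.

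**Figure D3:**
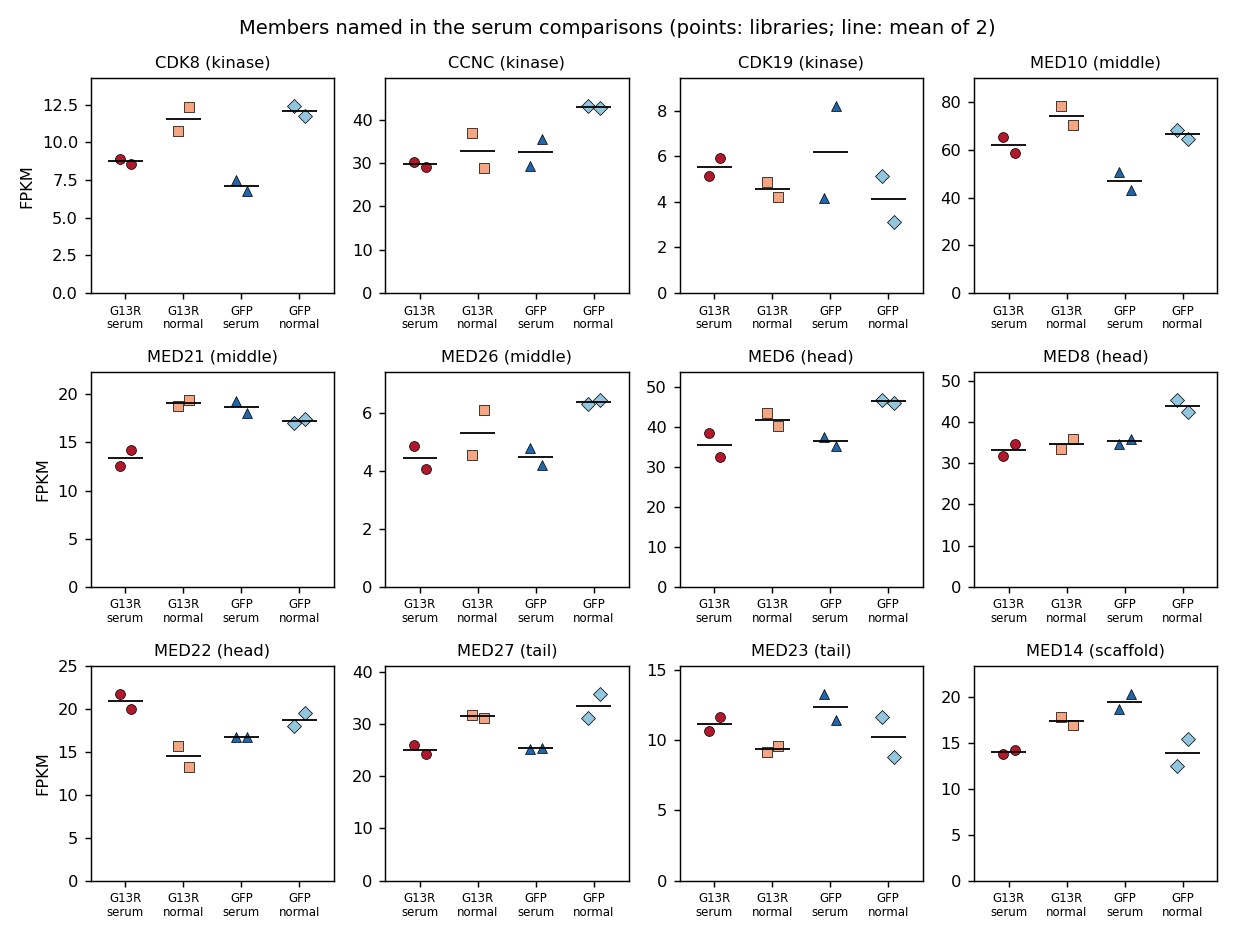
FPKM of 12 named Mediator genes in each library (points) with the mean of the 2 libraries of a group (line), from 0 upwards. CDK8, MED6, MED10 and MED27 lie lower after serum in both kinds of cell, with no overlap. MED14, MED21 and MED22 differ in direction between the 2 kinds of cell.

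Whether the serum response differed between G13R and GFP cells was tested as the difference of the responses. MED14 had 13.8 and 14.3 FPKM in G13R cells after serum, against 17.9 and 16.9 FPKM in G13R cells in normal growth (-0.29 ± 0.13, adjusted p = 0.17). In GFP cells it had been called higher after serum. The difference of the responses, G13R minus GFP, was -0.75 ± 0.18 and did not pass (adjusted p = 0.266). MED21 had 19.3 and 18.0 FPKM in GFP cells after serum, against 17.0 and 17.4 FPKM in GFP cells in normal growth (0.11 ± 0.12, adjusted p = 0.496). Its difference of -0.59 ± 0.16 did not pass (adjusted p = 0.271). MED22 had 16.7 and 16.8 FPKM in GFP cells after serum, against 18.0 and 19.5 FPKM in GFP cells in normal growth (-0.15 ± 0.12, adjusted p = 0.372). Its difference of 0.65 ± 0.17 did not pass (adjusted p = 0.268). For each of these 3 genes, then, the serum libraries lay wholly to one side of normal growth in G13R cells. In GFP cells they lay wholly to the other side. An opposite order was also seen for MED19, MED20 and MED29. Their serum libraries lay above normal growth in G13R cells and below it in GFP cells. None of their differences passed, and the share of all genes with such a pattern was not counted. The CDK8 difference was 0.33 ± 0.19 (adjusted p = 0.531), so its fall in GFP cells is not shown to differ from its response in G13R cells.

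By limma, 0 of the 33 members and 0% of all genes tested passed for the difference of the responses. Without GFP serum replicate 1 there were 486 of 12881 genes, and still 0 members. At an unadjusted p under 0.05 there were 4 members and 1533 of the 12996 genes. The 2 responses share no library.

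G13R cells were compared with GFP cells within each condition, and these comparisons share their libraries with the serum responses above. No member passed. After serum, 0 of 33 members were called, where 0.823% of all genes tested were (0.331% higher and 0.492% lower), and 6 members had an unadjusted p under 0.05, as had 2705 of the 12996 genes. In normal growth, 0 of 33 were called, where 0.0462% of all genes tested were (0.0385% higher and 0.00769% lower), and 7 members had an unadjusted p under 0.05, as had 1968 of the 12996 genes. The median log2 fold change over the members was -0.08 after serum, against -0.03 over all genes, and -0.02 without GFP serum replicate 2. In normal growth it was -0.13, against -0.07 over all genes, and 22 of 33 members were negative. It was -0.06 without G13R normal replicate 1.

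The members nearest to a call are named here after their values were seen. MED30, a subunit found in animals (chromosome 8, 118532952 to 118552501), had 8.999 and 10.7 FPKM in G13R cells after serum, against 14.8 and 18.3 FPKM in GFP cells after serum. In normal growth it had 12.6 and 11.4 FPKM in G13R cells, against 18.3 and 15.1 FPKM in GFP cells. All 4 G13R libraries lay below all 4 GFP libraries. The log2 fold changes were -0.69 ± 0.16 after serum (adjusted p = 0.0614) and -0.44 ± 0.16 in normal growth (adjusted p = 0.238). MED15 had 99.4 and 98.2 FPKM in G13R cells after serum, against 82.3 and 72.5 FPKM in GFP cells after serum (0.35 ± 0.09, adjusted p = 0.083). MED10, with the values given above, was higher in both G13R serum libraries than in both GFP serum libraries (0.39 ± 0.11, adjusted p = 0.0968). Without GFP serum replicate 1 all 3 were called (adjusted p = 0.0153, 0.0154 and 0.0191 for MED30, MED15 and MED10), when 1620 genes in all were, and GFP serum replicate 2, which stood apart, was then the only library of its group. With all libraries in the fit, MED21 had -0.45 ± 0.12 (adjusted p = 0.083) and MED14 had -0.45 ± 0.13 (adjusted p = 0.107) after serum. In normal growth the smallest p among the members was that of MED19, a subunit between head and middle. It had 18.9 and 19.8 FPKM in G13R cells, against 26.1 and 26.0 FPKM in GFP cells (-0.41 ± 0.11, adjusted p = 0.17), with no overlap.

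**Figure D4:**
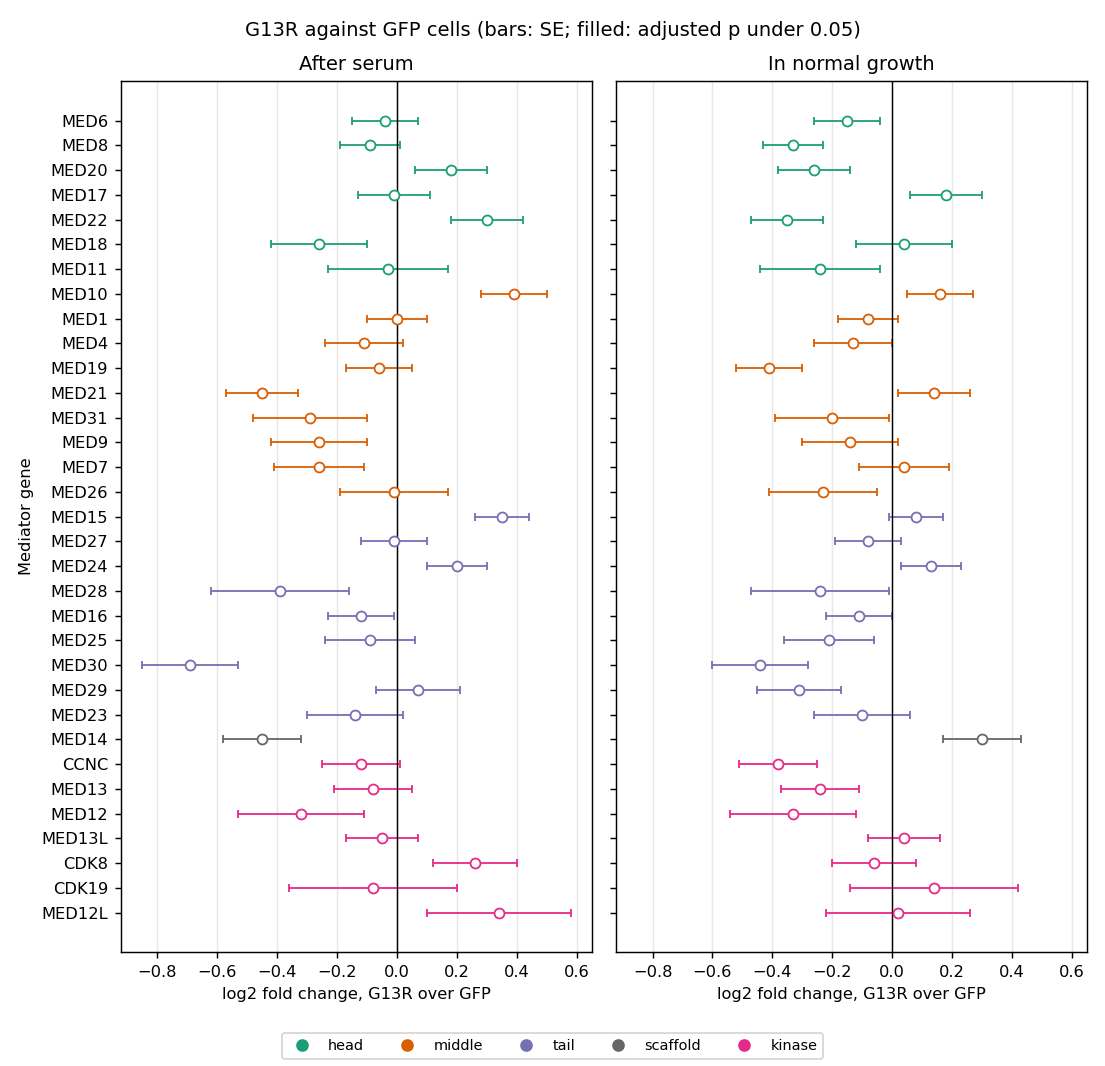
Log2 fold change of each Mediator gene, G13R over GFP, after serum (left) and in normal growth (right), with SE bars. All points are open because no member reached an adjusted p under 0.05, and MED30 stands lowest in both panels at -0.69 and -0.44.

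The kinase module holds 3 pairs of paralogues, and their ratio within a library does not depend on how libraries were scaled. CDK8 and CDK19 are the alternative kinases, MED12 and MED12L activate them, and MED13 and MED13L link the module to the core complex. None of the 50-base windows of 1 paralogue's longest coding transcript occurred in that of the other (0% for each of the 3 pairs). CDK19 stood at 0.574 and 0.692 of the CDK8 level in G13R cells after serum, against 0.454 and 0.341 in G13R cells in normal growth. In GFP cells it stood at 0.554 and 1.21 of the CDK8 level after serum, against 0.414 and 0.266 in normal growth. The ratio was thus higher in all 4 serum libraries than in all 4 normal growth libraries, and in GFP serum replicate 2 CDK19 exceeded CDK8. No ratio was tested or compared with those of other gene pairs. CDK8 and CDK19 together had 14.1 and 14.5 FPKM in G13R cells after serum, against 15.6 and 16.5 FPKM in G13R cells in normal growth. In GFP cells the sum was 11.7 and 14.9 FPKM after serum, against 17.5 and 14.9 FPKM in normal growth.

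MED12 had 17.8 and 17.9 FPKM in G13R cells after serum, against 15.4 and 20.5 FPKM in G13R cells in normal growth. In GFP cells it had 19.1 and 26.7 FPKM after serum, against 28.1 and 18.3 FPKM in normal growth, so its groups overlapped in both kinds of cell. MED12L stayed at 0.0645 to 0.166 of the MED12 level in every library. That ratio was higher after serum in G13R cells, and serum and normal growth overlapped in GFP cells. The span of MED12L overlaps other genes, and the counting is not stated to use strand, so the low MED12L values are uncertain. MED13 had 29.2 and 24.3 FPKM in G13R cells after serum, against 28.0 and 26.0 FPKM in G13R cells in normal growth. It had 26.0 and 30.9 FPKM in GFP cells after serum, against 30.7 and 33.3 FPKM in GFP cells in normal growth. Its groups overlapped in both, and MED13L lay at 0.381 to 0.557 of the MED13 level in every library. That ratio was 0.497 and 0.545 in G13R cells after serum, against 0.484 and 0.467 in normal growth. In GFP cells it was 0.557 and 0.466 after serum, against 0.396 and 0.381 in normal growth. Within each kind of cell it was thus higher after serum, as for CDK19 over CDK8, but the ranges overlapped across kinds of cell. None of these 4 genes was called in any comparison.

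**Figure D5:**
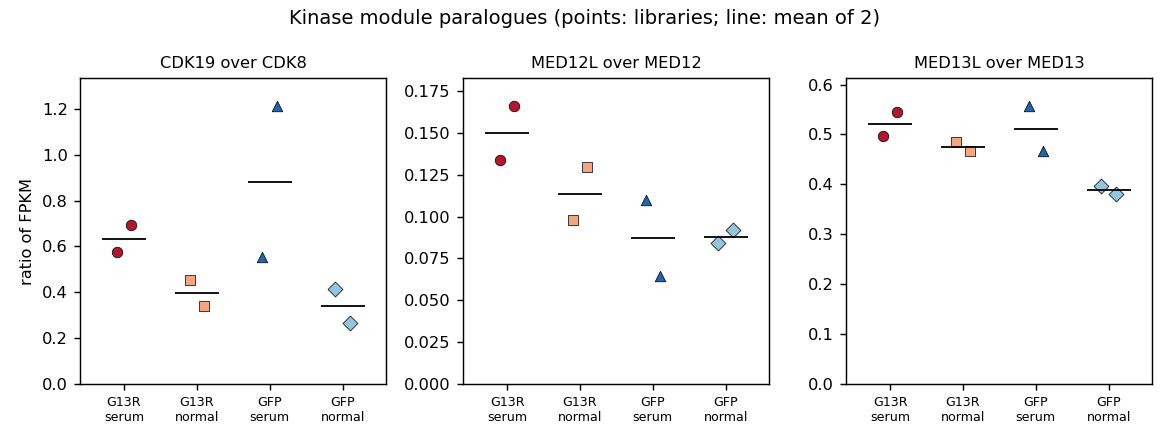
Ratio of FPKM of each kinase module paralogue pair in each library (points) with the mean of 2 libraries (line), from 0 upwards. CDK19 over CDK8 is 0.554 or more in every serum library and 0.454 or less in every normal growth library. MED13L over MED13 is also higher after serum within each kind of cell.

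Summed over modules, the head subunits had 157 and 158 FPKM in G13R cells after serum, against 157 and 164 FPKM in G13R cells in normal growth. In GFP cells the head sum was 158 and 153 FPKM after serum, against 181 and 182 FPKM in normal growth. The middle sum was 171 and 167 FPKM in G13R cells after serum, against 191 and 188 FPKM in normal growth, and in GFP cells 170.3 and 165 FPKM after serum, against 195 and 193 FPKM in normal growth. The tail sum was 247 and 246.7 FPKM in G13R cells after serum, against 237 and 256 FPKM in G13R cells in normal growth, and in GFP cells 237 and 240.1 FPKM after serum, against 259.8 and 255 FPKM in normal growth. The kinase module sum was 108 and 102 FPKM in G13R cells after serum, against 111 and 107 FPKM in G13R cells in normal growth, and in GFP cells 103 and 124.2 FPKM after serum, against 134 and 123.7 FPKM in normal growth. Kinase module sums thus overlapped between serum and normal growth in both kinds of cell, and head and tail sums in G13R cells. Middle sums were lower in both serum groups, and MED10 was the middle subunit with the highest level in every library. All members together made up 0.139 and 0.135% of the FPKM sum in G13R cells after serum, against 0.144 and 0.141% in G13R cells in normal growth. In GFP cells the share was 0.134 and 0.130% after serum, against 0.144 and 0.137% in normal growth. The share was lower in the serum libraries of each kind of cell, by a small margin.

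The other genes whose products meet Mediator at promoters were counted in the same fit. Of 34 general transcription factor genes, all tested, 12 were called lower and 0 higher after serum in GFP cells. In G13R cells 5 were lower and 0 higher. The median log2 fold changes were -0.21 in GFP cells and -0.12 in G13R cells. GTF2F2, a subunit of TFIIF, had 30.2 and 31.9 FPKM in G13R cells after serum, against 47.3 and 46.6 FPKM in G13R cells in normal growth (-0.58 ± 0.10, adjusted p = 0.0059). In GFP cells it had 25.6 and 24.7 FPKM after serum, against 60.4 and 52.7 FPKM in normal growth (-1.14 ± 0.10, adjusted p = 7.88e-05). The G13R call was lost without G13R normal replicate 1 or G13R serum replicate 1 (adjusted p = 0.0505 and 0.0572). Of 12 RNA polymerase II subunit genes, 7 fell in GFP cells and 4 in G13R cells after serum. None of either list was called higher. In G13R cells that was 14.7% of the general factors and 33.3% of the polymerase genes, beside 4.62% of all genes called lower and 12.9% called either way. The called shares in GFP cells were 35.3% for the general factors and 58.3% for the polymerase, all lower, beside 15.7% of all genes called lower. Called either way were 21.2% for Mediator and 30.7% for all genes. The differences between these shares were not tested.

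Activators that bind a named Mediator subunit moved both ways. Of 18 tested, of 19 listed, 5 were called higher and 2 lower after serum in GFP cells, and 2 higher and 2 lower in G13R cells. That was 38.9% of the list in GFP cells, beside 30.7% of all genes, and 22.2% in G13R cells, beside 12.9% of all genes. SREBF2, a sterol regulator that binds MED15, had 56.4 and 58.0 FPKM in G13R cells after serum, against 29.7 and 24.1 FPKM in G13R cells in normal growth (1.07 ± 0.13, adjusted p = 0.00112). In GFP cells it had 68.7 and 86.7 FPKM after serum, against 31.3 and 32.1 FPKM in normal growth (1.26 ± 0.13, adjusted p = 0.000174). Its partner MED15 was not called in either serum response. Between G13R and GFP cells after serum, 2 activators were called, SREBF1 and CEBPB, both close to the threshold. SREBF1, which also binds MED15, had 41.4 and 45.7 FPKM in G13R cells after serum, against 64.5 and 88.2 FPKM in GFP cells after serum (-0.78 ± 0.14, adjusted p = 0.0443). CEBPB had 58.9 and 57.1 FPKM in G13R cells after serum, against 40.5 and 43.8 FPKM in GFP cells after serum (0.45 ± 0.09, adjusted p = 0.0487). Neither pair of groups overlapped. Leaving out any library other than GFP serum replicate 1 ended both calls, with adjusted p from 0.0755 to 0.349 for SREBF1 and from 0.0802 to 0.361 for CEBPB. In normal growth 0 of the 18 activators were called, and in both conditions 0 general transcription factor and 0 polymerase genes were.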

How the data were processed

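The FPKM values are the authors', in 1 deposited table with a row per gene. The submitters' processing notes name the tools TopHat2 2.0.13 and Cufflinks 2.2.1 and the builds hg19 and BDGP5, while the gene annotation was not given in the sources used here. Column names were matched to the labels, the letter C being taken for normal growth, and 0 columns had no match. For 81.8% of 148 short olfactory receptor genes the end less the start could be divided by 3, so starts were read as 0-based and 1 was added.

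Low FPKM values gave a common ratio between libraries for only 7.86 to 15.4% of genes, so reads were not recovered and no count test was run. The test was limma 3.58.1 (R 4.3.3) on log2(FPKM + 1), with an intensity trend and 1 mean per group over all 8 libraries (4 residual degrees of freedom). It ran on 12996 genes, those that reached 1 FPKM in 2 or more libraries. Calls had an adjusted p under 0.05. The fit was tested on simulated data. It was repeated with each library left out, with the replicate number as a block, without the trend, on the compared libraries alone, after quantile or median-ratio normalization, with no filter or one of 5 FPKM, and with 0.1 as the pseudocount. Sharing of 50-base windows was counted in GENCODE 29 transcripts, and promoters are RefSeq's.

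Members called in any comparison, the 2 largest serum changes in GFP cells of each module, the kinase module paralogues, CCNC and MED14 are given by library. The members, lists and rules were chosen with earlier results of these data known.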

Additional observations from a re-analysis of the deposited data

How the results depend on the processing

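The 7 members called in GFP cells after serum became 2 without the filter on low values, 2 with only the compared libraries in the fit, 4 without the intensity trend and 2 to 9 when 1 library was left out. The 2 called in G13R cells, when 1675 of 12996 genes were called, became 1 without the filter, with 578 of 22504 genes. They became 1 under quantile normalization, with 1571 of 12996 genes. Without any 1 of the 4 G13R libraries the count was lower, as was that of all genes. After serum, 0 members and 107 of 12996 genes were called between G13R and GFP cells. With a filter at 5 FPKM it was 1 member (MED30) and 263 of 9867 genes. With the replicate block it was 1 member (MED10) and 403 of 12996 genes. Without GFP serum replicate 1 both counts were higher. The median over members in normal growth, -0.13, was -0.04 under quantile normalization and -0.15 to -0.06 when 1 library was left out. In the serum response of G13R cells, the uncalled fold change of MED8 ran from -0.12 to 0.00 and that of CCNC from -0.30 to 0.04 when 1 library was left out. The sign turned without G13R serum replicate 1 for MED8 and without G13R normal replicate 1 for CCNC, and the cause was not tested.

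The correlations of deviations by replicate number were 0.017 to 0.121 over the 6 pairs of groups. They were small but all positive, so they cannot settle whether replicate numbers pair the libraries. Under the replicate block, 83 genes rather than 6 were called between G13R and GFP cells in normal growth. After serum it was 403 rather than 107. For the serum response it was 4109 rather than 3985 in GFP cells and 1797 rather than 1675 in G13R cells. With the replicate block, 6 members were called in GFP cells after serum, CCNC no longer among them (adjusted p = 0.0544), and 2 in G13R cells. With MED27 to MED30 counted in the head, 3 head members and 0 tail members fell in GFP cells. MED6 shares 14.9% of its 50-base windows with other transcripts, MED17 41.4% and MED26 43.3%. The span of MED31 overlaps that of TXNDC17, at 95.5 to 124 FPKM, by 1227 bases. That of MED17 overlaps TAF1D, at 103 to 155 FPKM, by 165 bases. The part of these overlaps in the levels of MED31 and MED17 was not tested.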
